A study of Mus musculus with 8 samples.

Results

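The genes described here encode the major histocompatibility complex (MHC) and the proteins that load it with peptide. The members were the genes whose symbol starts with H2-, the prefix of the mouse MHC, together with 17 genes of peptide processing, loading and MHC transcription, and 40 of the 16382 genes in the files met this rule. Of these, 28 belong to class I and 12 to class II. All 40 entered the test, and 26 of them lie on chromosome 17, in or near the MHC.

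The libraries came from the soleus, a slow and oxidative hindlimb muscle, of 7-month-old female mice. There were 4 libraries from Megf10 KO mice (Megf10 -/-) and 4 from WT mice, each from 1 mouse. The KO mice were homozygous for the allele Megf10tm1b(KOMP)Jr, which lacks the fourth exon in every cell of the body, so no cell type was targeted. Some KO mice of the study were raised at another site, and which mice gave these libraries is not given in the sources used here, nor is the strain of the WT mice. RNA was taken from whole frozen muscle, so each value sums over fibers, vessels, connective tissue and immune cells, and fewer cells of a type and less RNA per cell cannot be told apart.

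MHC class I molecules stand on nearly all nucleated cells. A polymorphic heavy chain pairs with beta-2-microglobulin and presents peptides that the proteasome cuts in the cytosol and the TAP transporter carries into the endoplasmic reticulum. MHC class II molecules are made mainly by dendritic cells, B cells and activated macrophages. Their alpha and beta chains meet the invariant chain Cd74 in the endoplasmic reticulum, travel to endosomes, and exchange a fragment of Cd74 for a peptide with the help of H2-DM. Resting muscle fibers carry little MHC.

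Megf10 itself had 1.55, 7.76, 1.12 and 11.1 normalized counts in KO mice 1 to 4, against 63.0, 57.1, 69.7 and 70.0 in WT mice 1 to 4. The libraries held 32.3 to 33.1 M normalized counts per KO library and 33.6 to 35.7 M per WT library. The spacing of low values put the depth before normalization at about 26.0 to 37.8 M reads for KO and 36.7 to 41.5 M for WT. KO replicates 2, 3 and 4 were shallower than every WT library, and KO replicate 1 was not. KO replicates 2 and 3 stood apart on genes of fast type IIb fibers, since the type IIb myosin gene Myh4 reached 18638 and 43384 normalized counts there, against 459.5 to 929.5 in KO replicates 4 and 1 and 746 to 3625 in WT. Slow fiber genes were abundant in every library, with Myh7 at 671650 ± 14816 normalized counts in KO muscle and 573873 ± 70585 in WT (SD, n = 4 each). Over all genes, 1466 passed an adjusted p of 0.05 (8.95% of 16382), 845 of them higher in KO and 621 lower (1279 and 321 when libraries were scaled to equal totals alone).

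The promoters of MHC genes share a set of short boxes, among them a Y box bound by NF-Y and an X2 box, and many class I promoters add a site for NF-kappa B. RefSeq promoters on GRCm38.p6 could be matched for 29 of the 40 members, 9 of class II and 20 of class I, and were searched, from 250 bases before to 50 after the start and on both strands, for ATTGG (the core of the Y box), TGACG (part of the X2 box), GAAANNGAA (the core of an interferon response element) and GGGATTCCC (a kappa B site). Shown here are the 180 bases before the start of 4 class II genes, of which H2-Aa, H2-Eb1 and H2-DMb1 were higher in KO and H2-Ob did not pass, and of the 2 class I heavy chains that were higher, to set these results beside the letters of each promoter. They are written from 5′ to 3′ on the gene's own strand, with matches to the Y box core, the X2 part and the kappa B site in capitals. They lie at chr17:34287824-34288003 on the minus strand (H2-Aa), and on the plus strand at chr17:34305687-34305866 (H2-Eb1), chr17:34153011-34153190 (H2-DMb1), chr17:34238725-34238904 (H2-Ob), chr17:35262914-35263093 (H2-D1) and chr17:35469909-35470088 (H2-Q10).
H2-Aa: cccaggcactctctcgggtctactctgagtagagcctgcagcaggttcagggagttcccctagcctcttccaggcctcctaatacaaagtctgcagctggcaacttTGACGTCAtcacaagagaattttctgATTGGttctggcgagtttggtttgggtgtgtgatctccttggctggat
H2-Eb1: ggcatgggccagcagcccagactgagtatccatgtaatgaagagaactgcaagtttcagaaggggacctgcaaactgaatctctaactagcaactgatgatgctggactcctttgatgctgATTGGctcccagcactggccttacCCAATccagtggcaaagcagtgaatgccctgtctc
H2-DMb1: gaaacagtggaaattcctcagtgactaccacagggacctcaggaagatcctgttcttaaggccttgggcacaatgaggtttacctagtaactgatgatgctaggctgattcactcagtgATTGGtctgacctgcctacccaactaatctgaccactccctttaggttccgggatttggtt
H2-Ob: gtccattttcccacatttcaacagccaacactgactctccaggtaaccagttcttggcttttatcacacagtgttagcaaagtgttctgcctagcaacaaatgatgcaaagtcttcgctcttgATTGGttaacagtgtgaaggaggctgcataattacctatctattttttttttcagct
H2-D1: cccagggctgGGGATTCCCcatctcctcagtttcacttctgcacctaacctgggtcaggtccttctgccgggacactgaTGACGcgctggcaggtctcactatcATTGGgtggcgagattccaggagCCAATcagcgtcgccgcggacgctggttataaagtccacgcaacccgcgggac
H2-Q10: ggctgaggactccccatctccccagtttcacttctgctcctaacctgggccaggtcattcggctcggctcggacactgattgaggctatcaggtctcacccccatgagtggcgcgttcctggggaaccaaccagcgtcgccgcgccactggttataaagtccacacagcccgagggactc

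The window of H2-Aa held ATTGG at -48 to -44 from the start, in a longer Y box (CTGATTGG) that overlaps this core, and a palindrome at -74 to -67 in which TGACG was matched on both strands. H2-Eb1, H2-DMb1 and H2-Ob also held ATTGG, beginning at -59, -61 and -57. The Y box core thus stood near the start both in class II genes that were higher in KO and in H2-Ob, which did not pass. H2-D1 held the Y box core, the X2 part and the kappa B site, and H2-Q10 held none of the 3. Over the matched promoters, ATTGG was in 6 of 9 class II and 16 of 20 class I promoters, against 37.9% of all 27025 promoters of the same length and 38.4% of the 12026 among them that belong to genes in the files. TGACG was in 2 of 9 and 10 of 20, against 21.0% and 29.2%. GAAANNGAA was in 1 of 9, the promoter of Ctss, and in 4 of 20 (B2m, Erap1, H2-T22 and H2-T23), against 8.57% and 7.32%. Only this spacing of the letters was searched, so a promoter without a match may still hold an interferon response element. H2-D1, H2-Q10 and H2-K1 had no match, but each held the letters cagtttcacttctgc. On the other strand this run reads GAA, 2 letters and GAAA, the searched parts in the other order. The count of matches leaves this form out, and whether it acts as such an element was not tested. GGGATTCCC was in 0 of 9 and in 4 of 20 (H2-K1, H2-D1, H2-Q6 and H2-Q7), against 0.370% and 0.383%. A match describes letters, and no binding was measured here.

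Class II genes were the members with the most calls. Of the 12 class II members, 7 were higher in Megf10 KO soleus, none was lower and 5 did not pass, while 5.16% of all genes were called higher. The 7 were the chains H2-Aa, H2-Ab1, H2-Eb1 and H2-DMb1, the invariant chain Cd74, the protease Ctss and the transcriptional regulator Ciita. The median log2 fold change was 1.01 for the 12 class II members and -0.0072 for all genes. In the same 7 genes every KO library was above every WT library, a pattern found in 8.63% of all genes.

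H2-Aa encodes the alpha chain of the I-A molecule. It had 752, 1023, 1236 and 1034 normalized counts in KO mice 1 to 4, against 432, 418, 309.7 and 502 in WT mice 1 to 4. The gene was higher in KO by 1.28 log2 units (standard error 0.172, limma adjusted p = 0.00257, corrected by the Benjamini-Hochberg method over all genes). The lowest KO library, replicate 1, stood above the highest WT library, replicate 4.

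H2-Ab1, the beta chain of I-A, had 779.8, 919.9, 1044 and 1085 normalized counts in KO soleus, against 406, 397, 302 and 543 in WT soleus. KO exceeded WT by 1.23 on the log2 scale (standard error 0.169, limma adjusted p = 0.00263). The KO values were all above the WT values. The ratio of H2-Aa to H2-Ab1 was 0.953 to 1.18 in KO and 0.925 to 1.07 in WT, so the groups overlapped in it.

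H2-Eb1, the beta chain of the I-E molecule, had 628, 993, 1015 and 950.3 normalized counts in KO libraries and 439, 341, 268 and 481 in WT libraries. On the log2 scale KO exceeded WT by 1.24 (standard error 0.202, limma adjusted p = 0.00548). The groups did not overlap, although KO replicate 1 lay well under the other KO libraries. The alpha chain of I-E, H2-Ea, was not analysed here.

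**Figure D1:**
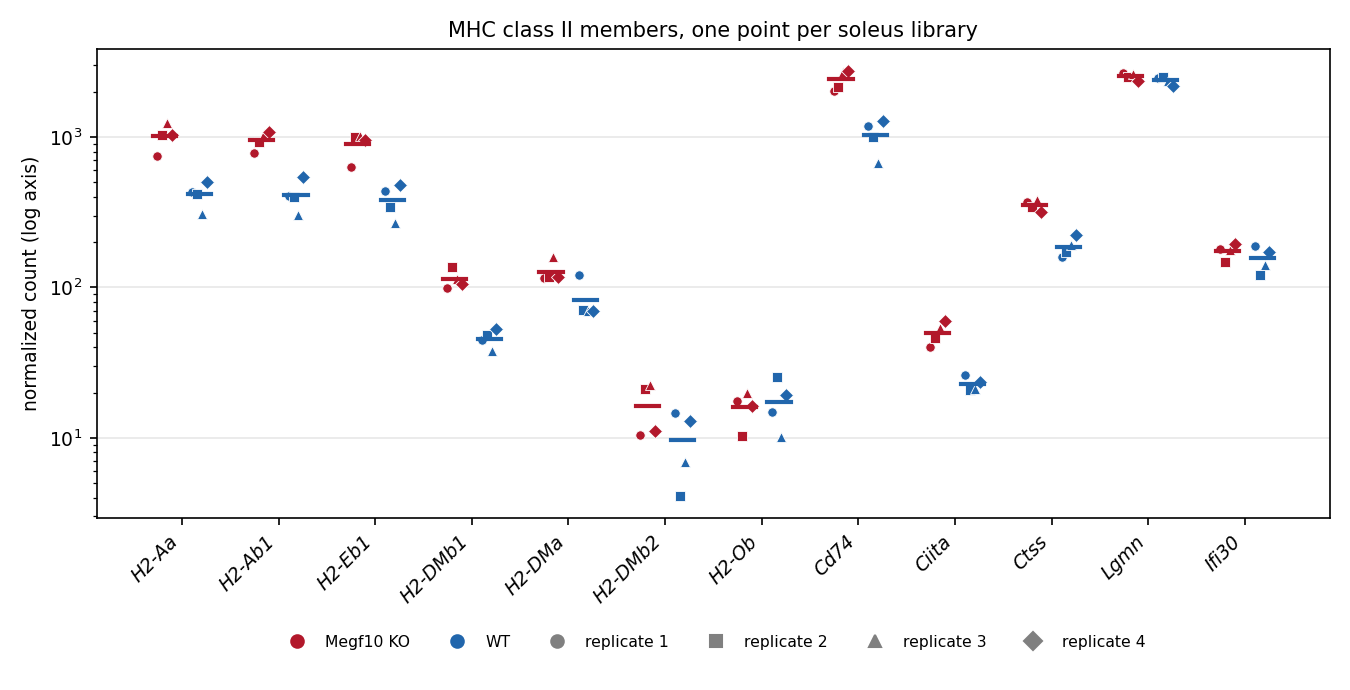
Normalized counts (log axis) of the 12 class II members in each Megf10 KO library (red, left) and each WT library (blue, right) of each gene. Marker shapes give the replicate and bars the mean of 4 libraries. KO and WT points separate for 7 genes, such as H2-Aa at 752 to 1236 against 309.7 to 502, and mix for H2-DMa, H2-DMb2, H2-Ob, Lgmn and Ifi30.

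Of the 4 genes tested of the H2-DM and H2-O molecules, 1 was higher in KO (5.16% of all genes were). H2-Oa, the other chain of H2-O, was not analysed here. H2-DM removes the last fragment of Cd74 from the groove of class II molecules and lets well-fitting peptides stay. Its beta chain H2-DMb1 had 98.9, 137, 114 and 106 normalized counts in KO libraries, against 44.6, 48.1, 37.6 and 52.5 in WT libraries. The gene was higher in KO by 1.30 log2 units (standard error 0.192, limma adjusted p = 0.00372), and the KO values were all above the WT values.

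H2-DMa, the alpha chain of the same molecule, had 115, 117, 159 and 118 normalized counts in KO muscle and 121, 70.7, 69.3 and 70.2 in WT. The genotypes differed by 0.64 on the log2 scale (standard error 0.221, limma adjusted p = 0.0974). WT replicate 1 alone reached the KO level, and the gene passed without it (limma adjusted p = 0.0303; 0.0303 to 0.716 over all alternatives).

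H2-DMb2, a second beta chain gene next to H2-DMb1, was low, with 10.4, 21.2, 22.5 and 11.1 normalized counts in KO muscle and 14.6, 4.08, 6.94 and 13.0 in WT (KO over WT 0.76 in log2 units, standard error 0.464, limma adjusted p = 0.343). H2-Ob, the beta chain of the DM inhibitor H2-O, had 17.6, 10.2, 19.9 and 16.2 in KO and 14.7, 25.4, 10.2 and 19.1 in WT. The genotypes differed by -0.08 on the log2 scale (standard error 0.367, limma adjusted p = 0.920), and the KO and WT libraries were mixed throughout.

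Per kilobase of the longest coding transcript, the class II genes spanned a wide range of levels. Cd74 averaged 1711 normalized counts per kilobase in KO and 733 in WT, above H2-Aa (896.5 and 368), H2-Ab1 (789.6 and 339.9) and H2-Eb1 (537 and 229). H2-DMb1 had 81.1 per kilobase in KO and 32.5 in WT, H2-DMa 63.4 and 41.3, H2-DMb2 10.99 and 6.51, Ciita 8.33 and 3.81, and H2-Ob 5.99 and 6.50. Lgmn, a protease of endosomes described further on, had 1275 and 1196, above the chains in both genotypes and above Cd74 in WT.

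Of the 5 class II genes outside the chains, 3 were higher in KO (5.16% of all genes were) and 2 did not pass. Cd74, the invariant chain that fills the groove of class II molecules until they reach endosomes, had 2018, 2139.8, 2724 and 2766 normalized counts in KO libraries, against 1176, 1001, 675 and 1282 in WT libraries. KO exceeded WT by 1.25 on the log2 scale (standard error 0.187, limma adjusted p = 0.00394). The groups did not overlap in Cd74 itself, but they did in its ratio to the summed chains, which was 0.664 to 0.840 in KO and 0.672 to 0.799 in WT. Cd74 lies on chromosome 18, as Megf10 does. Of the 21 listed genes between them 1 was higher and 3 were lower in KO (5.16% and 3.79% of all genes). The part of this linkage in the Cd74 result was not tested.

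Ciita is the coactivator that class II promoters need. It had 40.4, 46.0, 53.6 and 60.2 normalized counts in KO muscle and 26.2, 20.9, 21.0 and 23.5 in WT (KO over WT 1.09 in log2 units, standard error 0.237, limma adjusted p = 0.0193). The groups did not overlap, but the call was lost without KO replicate 3, KO replicate 4 or WT replicate 3 (adjusted p up to 0.0621 from limma without 1 library).

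Ctss encodes cathepsin S, the protease that trims Cd74 in antigen-presenting cells. It had 369, 343, 382 and 315 normalized counts in KO, against 158, 172, 191 and 224 in WT, and the genotypes differed by 0.93 on the log2 scale (standard error 0.135, limma adjusted p = 0.00349). Unlike the 4 called chains, Ctss was not lowest in KO replicate 1. Lgmn, an asparagine-specific endosomal protease, had 2537 ± 127 normalized counts in KO muscle and 2380.0 ± 149 in WT (SD, n = 4 each), and its log2 fold change was 0.09 (limma adjusted p = 0.437). Ifi30, a thiol reductase that opens disulfide bonds of antigens, had 175 ± 19.4 in KO and 156 ± 31.0 in WT (SD, n = 4 each; KO over WT 0.18 in log2 units, limma adjusted p = 0.565).

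The class II chains summed to 2402, 3221, 3610.3 and 3319.7 normalized counts in KO mice 1 to 4, against 1472, 1304, 1004 and 1681 in WT mice 1 to 4. The ratio of the means was 2.30. KO replicate 1, whose depth was like that of the WT libraries, was the lowest KO library for 6 of the 7 called class II genes, at 1.64 to 2.16 times the WT mean over the 7.

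The class II calls did not hold in a pair of alternatives. Without KO replicates 2 and 3 together, none of the 12 class II members passed (0.739% of all genes higher; limma adjusted p = 0.0541 to 0.139 for the 7), 7 were higher at an unadjusted p under 0.05 (9.38% of all genes), and the median log2 fold change was 0.97. With log2 depth as a covariate, none passed (0.269% of all genes higher; limma adjusted p = 0.120 to 0.460 for the 7), 6 were higher at an unadjusted p under 0.05 (6.63% of all genes), and the median was 0.66. In that fit H2-Aa had a log2 fold change of 0.78, H2-Eb1 0.58 and H2-DMa 0.39. Log2 depth and genotype had a correlation of -0.79 over the 8 libraries, so depth and genotype cannot be fully told apart here.

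A smaller share of class I genes was called. Of the 28 class I members, 5 were higher in Megf10 KO soleus (5.16% of all genes were), none was lower (3.79% of all genes were) and 23 did not pass. The 5 were the heavy chains H2-Q10 and H2-D1, the light chain B2m, the lipid-presenting Cd1d1 and the regulator Nlrc5. The median log2 fold change was 0.19 over the 28, and 4 of them had every KO library above every WT library, against 8.63% of all genes.

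**Figure D2:**
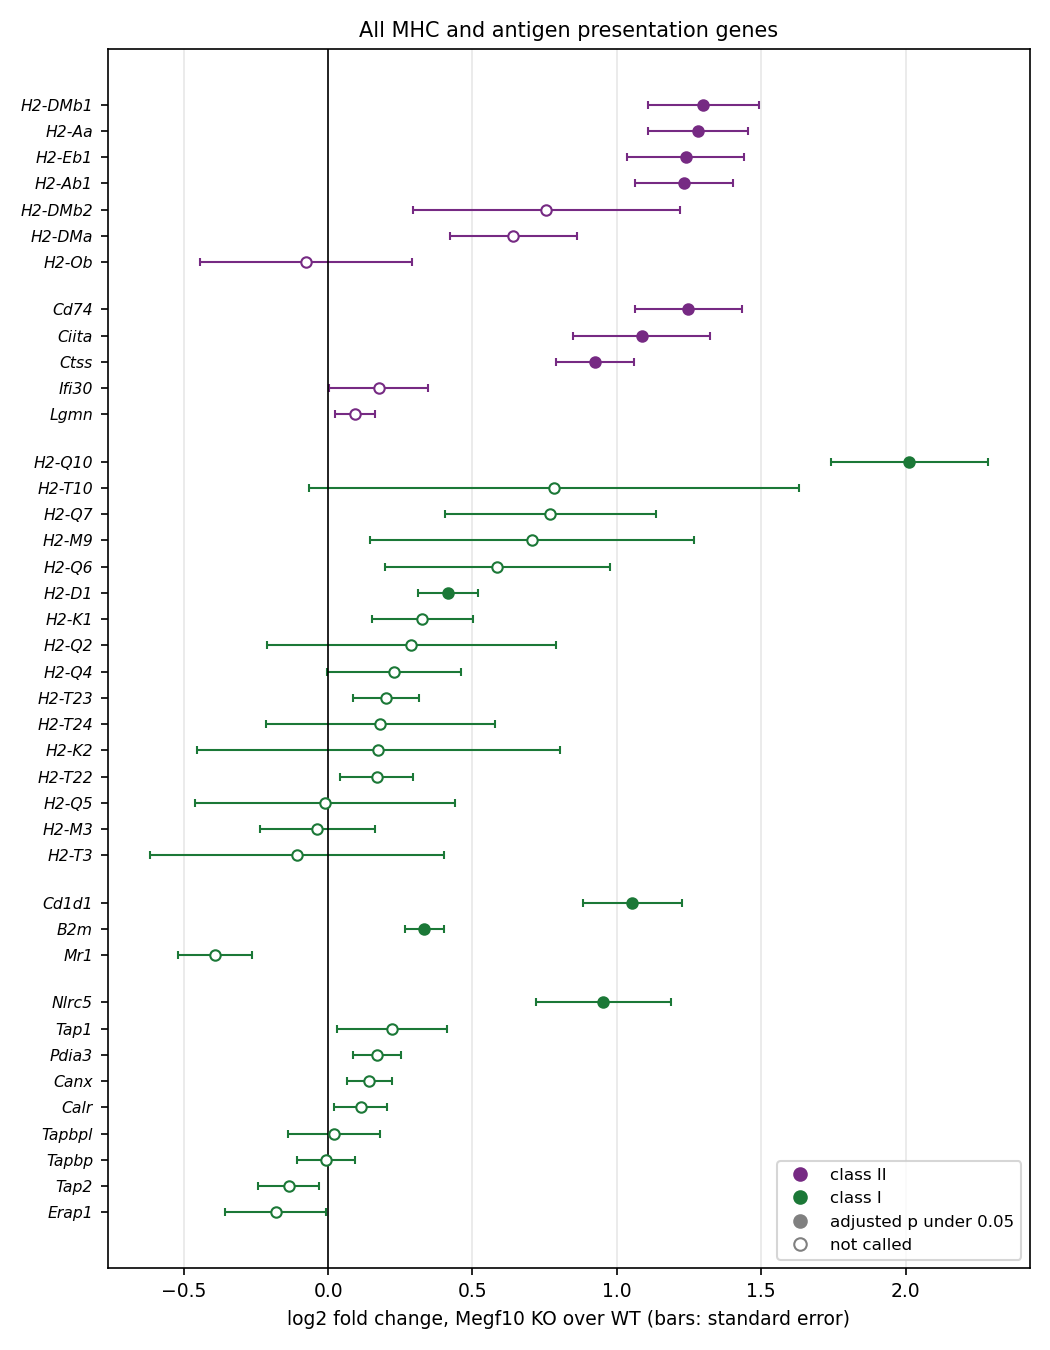
Log2 fold change (Megf10 KO over WT, on log2 of the normalized count plus 1) of the 40 members with its standard error, class II and class I apart. Filled points passed an adjusted p of 0.05 and open points did not. The called class II members lie between 0.93 and 1.30, and of the called class I members H2-Q10 (2.01), Cd1d1 (1.05) and Nlrc5 (0.95) lie within or beyond that range, while H2-D1 (0.42) and B2m (0.33) lie nearer to 0.

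H2-K1 and H2-D1 are the classical heavy chains that present peptides to CD8 T cells. H2-D1 had 3907, 3657, 3686 and 4527 normalized counts in KO libraries, against 3484, 3080.2, 2523 and 2785 in WT libraries. On the log2 scale KO exceeded WT by 0.42 (standard error 0.105, limma adjusted p = 0.0352). The groups did not overlap, but the gene passed in only 2 of the 8 fits without 1 library (without KO replicate 2 and without WT replicate 1; adjusted p up to 0.0876 from limma over the 8).

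H2-K1 had 3810.4, 2782, 2463 and 3281 normalized counts in KO, against 3171, 2714, 1797 and 2238 in WT. The genotypes differed by 0.33 on the log2 scale (standard error 0.176, limma adjusted p = 0.279), and the groups overlapped. The classical heavy chains have long stretches in common with each other and with the H2-Q genes, so the split of reads among them is uncertain.

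H2-Q10 had the largest log2 fold change of the 40 members. It encodes a heavy chain that in mice is known as a secreted product of the liver. It had 102, 213, 166 and 184 normalized counts in KO mice 1 to 4, against 30.7, 57.6, 34.7 and 37.9 in WT mice 1 to 4. The gene was higher in KO by 2.01 log2 units (standard error 0.272, limma adjusted p = 0.00259), and the KO values were all above the WT values. KO replicate 1 was the lowest KO library and stood at 2.55 times the WT mean.

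The remaining H2-Q genes did not pass. H2-Q7, which encodes the Qa-2 antigen, had 651, 326, 378 and 506 normalized counts in KO muscle and 619, 214, 177 and 203 in WT (KO over WT 0.77 in log2 units, standard error 0.365, limma adjusted p = 0.215). H2-Q6, its close paralog, had 646, 312, 249 and 369 in KO and 482, 293, 125 and 204 in WT (0.59, standard error 0.389, limma adjusted p = 0.382). Replicate 1 was the highest library of both genotypes in both genes, and together they made 6.90 to 11.4% of the summed heavy chains in KO and 4.98 to 11.3% in WT. The log2 fold changes of H2-Q4, H2-Q2 and H2-Q5 were 0.23, 0.29 and -0.01 (limma adjusted p = 0.584 to 0.992).

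Of the H2-T and H2-M genes, whose products present few or special peptides or none, none passed. H2-T23, the ligand of an inhibitory receptor of natural killer cells, had 502 ± 64.0 normalized counts in KO muscle and 436 ± 33.7 in WT (SD, n = 4 each; KO over WT 0.20 in log2 units, limma adjusted p = 0.304). H2-T22, which some gamma-delta T cells bind, had 459.7 ± 68.9 in KO and 407 ± 42.5 in WT (KO over WT 0.17 in log2 units, limma adjusted p = 0.454). H2-M3, which presents formylated bacterial peptides, had a log2 fold change of -0.04. H2-T24 ranged over 45.2 to 115 in KO and 33.8 to 125 in WT (0.18 in log2 units). The scarce genes H2-T10, H2-M9, H2-T3 and H2-K2 averaged 30.6 normalized counts or fewer in each genotype (limma adjusted p = 0.471 to 0.918), and reads of H2-T10 cannot be cleanly parted from those of its paralog H2-T22.

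B2m, the light chain that every class I molecule needs, had 3212, 3157, 3176 and 3615 normalized counts in KO, against 2669, 2709.5, 2417 and 2649 in WT. KO exceeded WT by 0.33 on the log2 scale (standard error 0.0679, limma adjusted p = 0.0144), a small difference with little spread, and the groups did not overlap. The call was lost without a variance trend in the fit (limma adjusted p = 0.0588). The 16 heavy chains together reached 10013 ± 1388 normalized counts in KO muscle and 7789 ± 1557 in WT (SD, n = 4 each), a ratio of 1.29, and their sum per B2m was 2.66 to 3.53 in KO and 2.51 to 3.65 in WT. Per kilobase, B2m had 3825 normalized counts in KO muscle and 3036 in WT, H2-K1 1905 and 1532, and H2-D1 1876 and 1412.

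Of the class I-like molecules Cd1d1 and Mr1, Cd1d1 was higher in KO and Mr1 did not pass. Cd1d1 presents lipids to natural killer T cells and is found on macrophages, dendritic cells and B cells. It had 213, 263, 269 and 264 normalized counts in KO, against 134, 103, 154 and 99.5 in WT, and the genotypes differed by 1.05 on the log2 scale (standard error 0.172, limma adjusted p = 0.00538). Mr1 presents vitamin B metabolites to mucosal-associated invariant T cells. It had 485, 461, 438 and 483 in KO, against 607, 797, 547 and 532 in WT. Every KO library was below every WT library, as in 8.54% of all genes, but Mr1 did not pass (KO over WT -0.39 in log2 units, standard error 0.128, limma adjusted p = 0.0833).

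Of the 9 class I genes of peptide transport, loading and regulation, 1 was higher in KO (5.16% of all genes were). This was Nlrc5, which drives class I promoters as Ciita drives those of class II. Nlrc5 had 130.3, 142, 98.7 and 167 normalized counts in KO muscle and 62.3, 64.0, 98.8 and 53.6 in WT. On the log2 scale KO exceeded WT by 0.95 (standard error 0.234, limma adjusted p = 0.0314). KO replicate 3 and WT replicate 3 met at the same level, and the gene passed only without KO replicate 3 or WT replicate 3 among the 8 fits without 1 library (adjusted p up to 0.0805 from limma).

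Tap1, a subunit of the transporter that carries peptides into the endoplasmic reticulum, had 173, 199, 142 and 215 normalized counts in KO, against 131, 126, 185 and 186 in WT (KO over WT 0.22 in log2 units, standard error 0.191, limma adjusted p = 0.515). Its partner Tap2 had a log2 fold change of -0.14, the peptide trimmer Erap1 one of -0.18, tapasin (Tapbp) -0.01 and its homolog Tapbpl 0.02. The chaperones Pdia3, Canx and Calr had 0.17, 0.14 and 0.11. Over these 8 genes the adjusted p was 0.230 to 0.977 from limma, and the KO and WT libraries overlapped in each.

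The class I calls were lost in the same alternatives. Without KO replicates 2 and 3 together, none of the 28 passed (0.739% of all genes higher; limma adjusted p = 0.0570 to 0.101 for the 5). In that fit 8 were higher at an unadjusted p under 0.05 (9.38% of all genes). With log2 depth as a covariate none passed (0.269% of all genes higher), and 4 were higher at that p (6.63% of all genes). The median log2 fold change of the 28 was 0.24 in the first of these fits and 0.28 in the second. That of H2-Q10 was 1.79 and 1.50, of Cd1d1 0.97 and 0.84, of B2m 0.39 and 0.29, of H2-D1 0.51 and 0.36, of Nlrc5 1.11 and 1.05, and of H2-K1, which was not called, 0.54 and 0.57.

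A few pairs describe how libraries varied within a genotype; they were picked from both ends of the list after their values were seen. After the genotype mean was taken from each log2 value, H2-Aa and H2-Eb1 had a correlation of 0.94 over the 8 libraries, Cd74 and H2-Ab1 one of 0.93, and H2-Aa and H2-Ab1 one of 0.90. H2-K1 and H2-Q6 had 0.98 and H2-K1 and H2-Q4 had 0.95, pairs that can share reads. Across the classes, H2-Aa and H2-K1 had -0.09, Cd74 and H2-K1 had 0.32, and B2m and Cd74 had 0.68. Pairs of the same class also ran in opposite directions, such as H2-K1 and H2-M9 at -0.87 and H2-Ab1 and Lgmn at -0.52. Ciita had 0.72 with Cd74 and 0.65 with H2-Aa, and -0.12 with Nlrc5. All these values rest on the same 8 libraries and their depth, and describe them only.

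Replicate 1 of each genotype was the highest library for a part of the class I heavy chains, some of which can share reads. The same count was not made over all genes. KO replicate 1 was the highest KO library for 8 of the 16 heavy chains and WT replicate 1 the highest WT library for 6, and H2-K1, H2-Q4, H2-Q5, H2-Q6 and H2-Q7 had both. KO replicate 3 was the lowest KO library for 9 heavy chains and WT replicate 3 the lowest WT library for 10. KO replicate 1 was not high for every class I gene, since it was the lowest KO library for H2-Q10, Cd1d1, H2-T24 and H2-M9. Class II chains per class I heavy chains ranged over 0.212 to 0.427 in KO and 0.151 to 0.233 in WT.

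**Figure D3:**
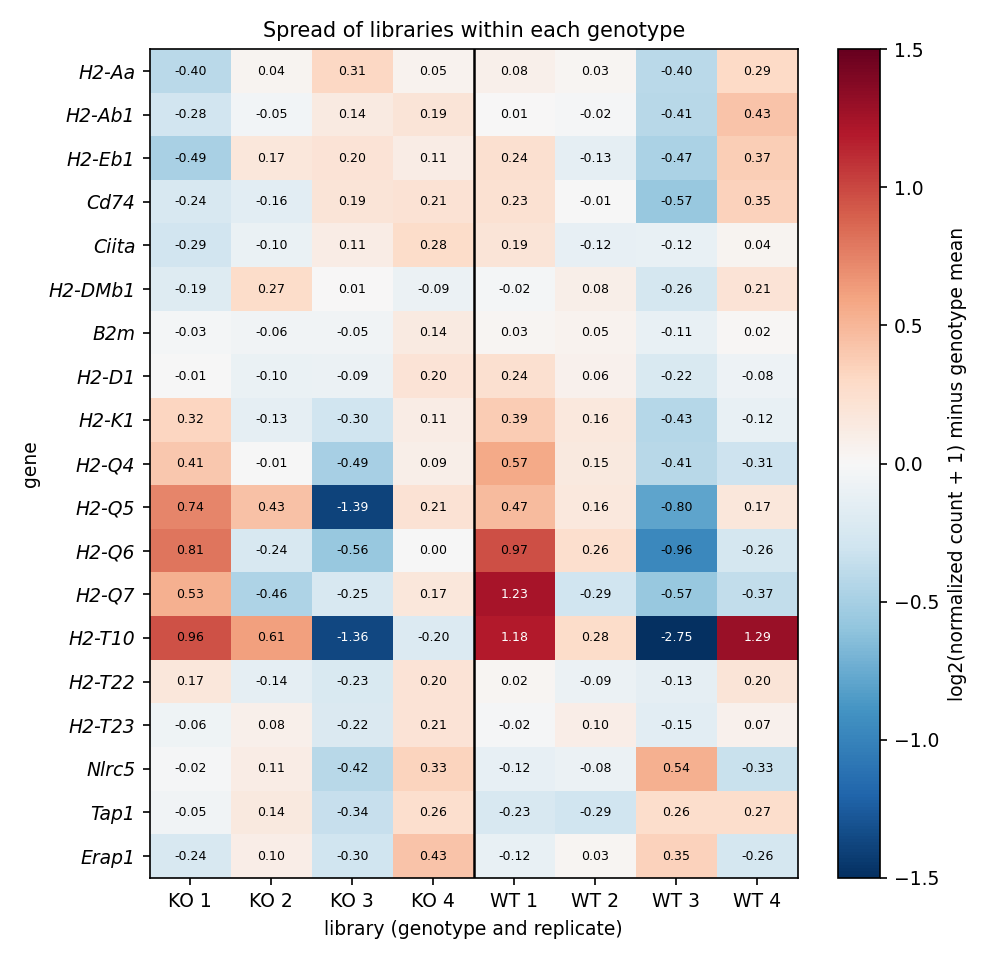
Deviation of each library from the mean of its genotype, in log2 of the normalized count plus 1, for 19 members (rows) in the Megf10 KO libraries (left) and the WT libraries (right). Colours are clipped beyond the ends of the scale and the numbers are not. KO replicate 1 is low in the class II rows shown and high in H2-K1, H2-Q4, H2-Q6 and H2-Q7.

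Of 38 other genes of the pathway in 4 lists, 5 passed, 13.2%, against 8.95% of all genes. None of 5 genes of the immunoproteasome, the form of the proteasome that interferon gamma brings out, passed in either direction. Psmb8, one of its catalytic subunits, had 216 ± 54.1 normalized counts in KO muscle and 154 ± 11.2 in WT (SD, n = 4 each; KO over WT 0.46 in log2 units, limma adjusted p = 0.141), and Psmb9, another, had 111 ± 29.1 in KO and 76.8 ± 14.1 in WT (0.51, limma adjusted p = 0.188). Psme1, a subunit of the proteasome activator, showed a log2 fold change of -0.25 (limma adjusted p = 0.0950).

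Of 14 regulators of MHC transcription, 2 were higher and 1 was lower in KO (5.16% and 3.79% of all genes), and their median log2 fold change was -0.08. The higher genes were both chains of the interferon gamma receptor. Ifngr1 had 1215 ± 140.1 normalized counts in KO muscle and 911 ± 119 in WT (SD, n = 4 each; KO over WT 0.42 in log2 units, limma adjusted p = 0.0476), and Ifngr2 had 1873 ± 98.5 in KO and 1583 ± 65.2 in WT (0.24, limma adjusted p = 0.0480). The lower gene was Nfyc, a subunit of the Y box factor NF-Y, with 1086 ± 109.9 in KO and 1381 ± 134 in WT (-0.35, limma adjusted p = 0.0484). Rfx5, a subunit of the factor that binds the X box, showed a log2 fold change of -0.09, and Irf1, an interferon response factor, one of -0.06. None of the 14 was higher without KO replicates 2 and 3 or with log2 depth as a covariate.

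Of 12 other genes of endosomal processing, 2 were higher and none was lower (5.16% and 3.79% of all genes). Ctsz, a lysosomal carboxypeptidase, had 1372 ± 85.2 normalized counts in KO muscle and 1032 ± 72.3 in WT (SD, n = 4 each; KO over WT 0.41 in log2 units, limma adjusted p = 0.0112). Sppl2a, the membrane protease that removes the last stub of Cd74, had 2645 ± 159 in KO and 2150.5 ± 83.8 in WT (0.30, limma adjusted p = 0.0199). Neither passed without KO replicates 2 and 3 or with log2 depth as a covariate. None of the 7 genes of co-stimulatory or inhibitory checkpoint signals tested, of 8 listed, passed. Cd80 came nearest (55.8 ± 8.52 in KO and 32.9 ± 3.65 in WT, SD, n = 4 each, KO over WT 0.74 in log2 units, limma adjusted p = 0.0628).

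Markers of cells that make class II were measured beside these genes. Of 12 macrophage markers, 6 were higher in KO and none was lower (5.16% and 3.79% of all genes), with a median log2 fold change of 0.67. Lyz2, lysozyme, had 2185 ± 189 normalized counts in KO muscle and 1218 ± 87.9 in WT (SD, n = 4 each; KO over WT 0.84 in log2 units, limma adjusted p = 0.000883). The complement genes C1qa, C1qb and C1qc were also higher (KO over WT 0.82, 0.89 and 0.82 in log2 units). The 12 markers summed to 5248 to 6905 normalized counts in KO muscle and 3073 to 4164 in WT, and the groups did not overlap. Without KO replicates 2 and 3 together 1 of the 12 was higher (0.739% of all genes), and with log2 depth as a covariate none was (0.269% of all genes).

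None of 8 dendritic cell markers passed, while 8.95% of all genes did. Their median log2 fold change was 0.55, and they summed to 399 to 556 in KO and 296 to 435 in WT. None of the 4 B cell markers tested, of 5 listed, passed (21.3 to 125 in KO and 33.3 to 48.6 in WT), nor any of the 4 T and NK cell markers tested, of 11 listed (53.2 to 91.4 in KO and 45.9 to 86.6 in WT). The other listed markers were not analysed here. Of 5 markers of all leukocytes, Ptprc (CD45) was higher (KO over WT 0.82 in log2 units, limma adjusted p = 0.0397), as were 5.16% of all genes. The sum of the 5 was 694 to 1062 in KO and 354 to 648 in WT. Of 6 endothelial markers, Tie1 and Cdh5 were lower (log2 fold change -0.43 and -0.38), as were 3.79% of all genes. The sum of the 6 was 7744 to 10660.3 in KO and 10581 to 12535 in WT. Of the markers tested, Aif1, a macrophage marker, was at 0 in 1 KO library and the others were above 0 in every library.

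Class II chains were also higher relative to the macrophage markers. Their ratio was 0.458, 0.583, 0.538 and 0.481 in KO mice 1 to 4 and 0.427, 0.341, 0.327 and 0.404 in WT mice 1 to 4, and the groups did not overlap. The separation did not extend to the markers of all leukocytes. Their sum was 794, 694, 824 and 1062 in KO mice 1 to 4. In WT mice 1 to 4 it was 442, 542, 354 and 648. Relative to this sum, the class II chains of WT mouse 1 lay above those of KO mice 1 and 4, so the groups overlapped. The part of cell numbers in the class II result was not tested.

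**Figure D4:**
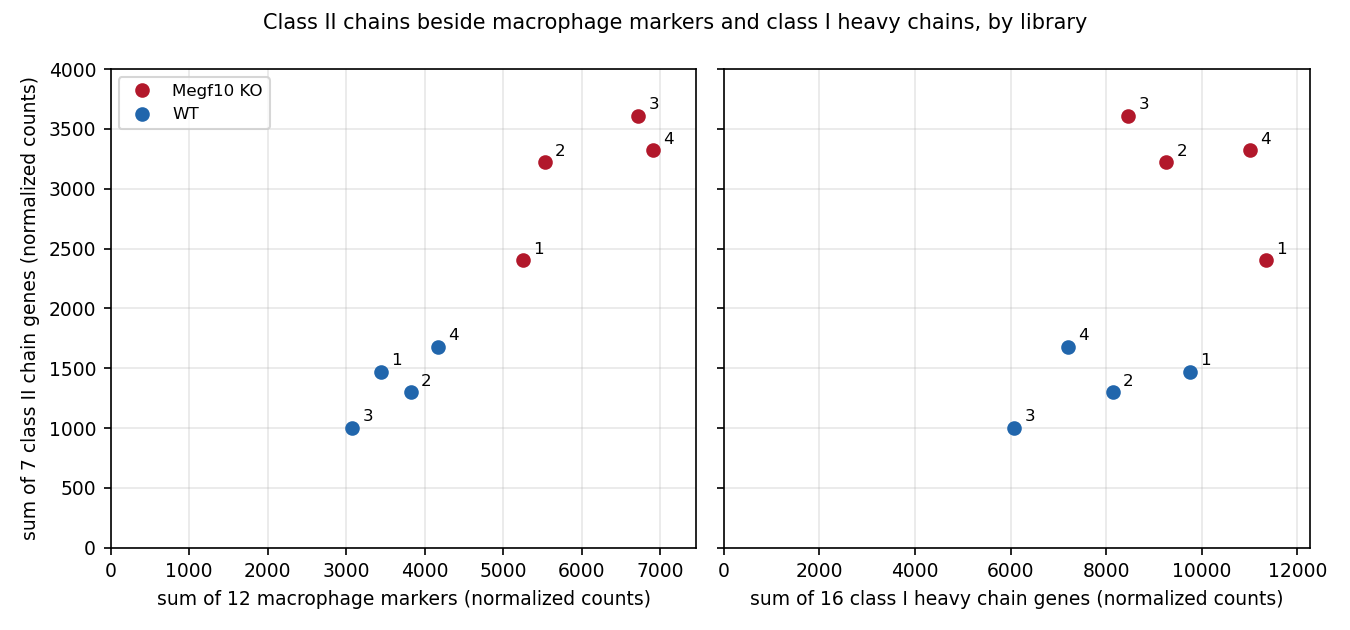
Summed normalized counts of the class II chains (vertical axis) in each library against the summed macrophage markers (left) and the summed class I heavy chains (right), with Megf10 KO libraries in red and WT libraries in blue and the replicate number beside each point. KO libraries reach 2402 to 3610.3 for class II and WT libraries 1004 to 1681. The genotypes also separate on the macrophage axis, and they overlap on the class I axis.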

How the data were processed

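RNA from the soleus of 4 Megf10 KO and 4 WT mice was poly(A)-selected and sequenced. The authors trimmed reads with Trimmomatic, quantified them with Salmon and deposited, per library, gene counts normalized with DESeq2 (a signal, not raw counts), with GRCm39 named as the build. Their table of comparisons holds their own fold changes and p-values and was not used. All genes in the files had a summed value above 5, and none was filtered out. The row without a gene name held 0.0112 to 0.0150% of each library and was left out.

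Values were tested as log2(normalized count + 1), a scale that understates changes of low genes, with limma 3.58.1 (R 4.3.3; eBayes with a variance trend, genotype as the sole term, Benjamini-Hochberg adjustment over 16382 genes, two-sided). A gene was called at an adjusted p under 0.05. Low values lie on steps worth 1 read, which gave the depths, but only 13.5 to 36.7% of values up to 60 were whole (within 0.01 reads), so no count test was run. The fit was tested on simulated data. Alternatives changed the pseudocount, a filter on low values, the scaling (equal totals, TMM on the deposited values, totals without the 10 most abundant genes), the variance trend, a replicate block, log2 depth as a covariate, the threshold and the libraries left out. Sequencing batches are not given in the sources used here.

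Named in full were called members, H2-K1, H2-D1, B2m, all class II chains, Ciita, Nlrc5 and Tap1, and of each other list up to 4 genes with the smallest adjusted p; Irf1 and Rfx5 were named after their values were seen. The members, lists and alternatives were chosen with earlier results of these data known. Promoters and transcript lengths came from RefSeq and GENCODE M21 on GRCm38, another build than that of the files, and were joined by symbol. A withheld gene is not reported here.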

Additional observations from a re-analysis of the deposited data

Results flagged for a closer look

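In 7 of 80 sets of 4 libraries (40 members in 2 genotypes), 1 library lay far from the other 3, where chance gives about 1 in 20. H2-Eb1 had 628 normalized counts in KO replicate 1 (950.3 to 1015 in the other KO libraries), and Cd1d1 had 213 in the same library (263 to 269). H2-DMa had 159 in KO replicate 3 (115 to 118 in the other KO libraries) and 121 in WT replicate 1 (69.3 to 70.7 in the other WT libraries). H2-Q7 had 619 in WT replicate 1 (177 to 214). B2m had 3615 in KO replicate 4 (3157 to 3212), and H2-T3 had 14.5 in WT replicate 4 (5.72 to 6.90).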

How the results depend on the processing

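Over all genes, 1466 calls became 819 without a variance trend, 440 at an adjusted p of 0.01, 164 without KO replicates 2 and 3 together and 58 with log2 depth as a covariate, and 662 (without KO replicate 3) to 1231 without 1 library (907 without WT replicate 3 and 959 without WT replicate 4). Library size as the sole scaling gave 1279 higher and 321 lower and moved the median gene by 0.08. The 7 class II calls became 0 without KO replicates 2 and 3 and 0 with depth, and 6 to 8 without 1 library. The 5 class I calls became 2 without a variance trend (B2m, H2-D1 and Nlrc5 were lost), 2 at an adjusted p of 0.01, and 0 without KO replicates 2 and 3 or with depth. Without 1 library there were 3 to 5 class I calls, with 3 when KO replicate 1 or 4 or WT replicate 2 or 4 was left out. H2-DMb2 turned to -0.14 with depth. H2-Ob turned to 0.035 without KO replicates 2 and 3 and to 0.12 with depth, and had -0.29 to 0.12 without 1 library. With the replicate number as a block, 1278 genes were called, 6 of class II (Ciita was lost, adjusted p = 0.0535 from limma) and 4 of class I (Nlrc5 was lost, 0.0738). Over all genes, deviations of same-numbered libraries had correlations of -0.07 to -0.03, which cannot exclude a pairing in some genes. With the block, the standard error of H2-K1 went from 0.176 to 0.0914 (adjusted p from 0.279 to 0.0699 with limma). Class I genes at an unadjusted p under 0.05 in limma went from 6 to 10 of 28, while those of class II stayed at 8 of 12. Over all 16382 genes the count at that p was 4179 without the block and 4205 with it. The cause of these changes was not tested, though leaving out libraries also leaves fewer mice. TMM factors, the other scalings, both pseudocounts, the filter on low values and robust estimation left 7 class II and 5 class I calls.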
